A study of Homo sapiens with 8 samples.

Results

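The CDKN2A locus on the short arm of chromosome 9 was examined through 4 genes, CDKN2A, CDKN2B, MTAP and DMRTA1, and through the stretch from 20 to 24 Mb of that chromosome (hg38), in lists of H3K4me1 peaks. The genes were taken by name from 19974 protein-coding genes, and the stretch was touched by 19 of 73600 peaks of the ARID1A knockout list and by 29 of 82994 peaks of the control list. H3K4me1, the monomethylation of lysine 4 on histone H3, marks enhancers and the surroundings of active promoters. The sample titles and antibody label name H3K4me1, whereas the protocol text names H3K4me3 for the same antibody, and the titles are followed here. The mark was mapped by ChIP-seq in MDA-MB-231, a human breast cancer line that lacks hormone receptors and HER2 (triple-negative). There were 2 immunoprecipitated and 2 input samples from cells labelled ARID1A knockout, and the same numbers from cells labelled control. No label says whether the knockout cells are 1 clone or a pool, which ARID1A allele they carry, or what the control cells received. The authors deposited 1 peak list per genotype, so no spread between replicates could be measured, and the values of the 2 lists are set side by side without a test.

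CDKN2A encodes 2 unrelated tumour suppressors from separate first exons. p16INK4a inhibits the kinases CDK4 and CDK6 and so keeps the retinoblastoma protein active, and p14ARF binds and restrains the ubiquitin ligase MDM2. CDKN2B, its neighbour, encodes p15INK4b, another inhibitor of CDK4 and CDK6. MTAP encodes methylthioadenosine phosphorylase, which returns a by-product of polyamine synthesis to methionine, and its loss together with CDKN2A leaves cells dependent on the arginine methyltransferase PRMT5. DMRTA1, on the far side of CDKN2B, encodes a DM-domain transcription factor. The locus is among the regions most often lost from both chromosomes in human tumours, and MDA-MB-231 is known to carry such a deletion of CDKN2A. The published ends of that deletion are not used here.

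None of the 4 genes carried a peak in either genotype, and the promoters of these genes lay in sequence with no peak for more than 1 Mb on both sides. The sequences below, from RefSeq (GRCh38.p14), run from 250 bases before to 50 bases after a start site, 5′ to 3′ on the strand of the gene, and capitals mark GGGCGG or its complement CCGCCC, the GC box bound by SP1-type factors. They show the promoters without a nearby peak and, last, that of FOCAD, the closest promoter with peaks on both sides. The CDKN2A starts are on the minus strand at chr9:21974808-21975107 (p16INK4a) and chr9:21995275-21995574 (p14ARF), and CDKN2B is on the minus strand at chr9:22009256-22009555. MTAP is on the plus strand at chr9:21802386-21802685, DMRTA1 on the plus strand at chr9:22446574-22446873, and FOCAD on the plus strand at chr9:20684009-20684308.
CDKN2A, p16INK4a start: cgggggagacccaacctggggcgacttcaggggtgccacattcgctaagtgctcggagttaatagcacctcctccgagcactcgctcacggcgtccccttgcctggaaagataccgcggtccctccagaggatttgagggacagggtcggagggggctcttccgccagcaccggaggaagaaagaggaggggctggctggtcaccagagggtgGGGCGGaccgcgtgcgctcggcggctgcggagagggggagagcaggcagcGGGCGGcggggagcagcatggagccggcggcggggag
CDKN2A, p14ARF start: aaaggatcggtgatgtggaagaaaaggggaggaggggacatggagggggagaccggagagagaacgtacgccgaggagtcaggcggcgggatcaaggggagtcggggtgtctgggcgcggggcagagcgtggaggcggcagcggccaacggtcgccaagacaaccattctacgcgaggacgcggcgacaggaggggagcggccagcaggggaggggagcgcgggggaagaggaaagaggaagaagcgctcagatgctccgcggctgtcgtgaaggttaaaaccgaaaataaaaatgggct
CDKN2B: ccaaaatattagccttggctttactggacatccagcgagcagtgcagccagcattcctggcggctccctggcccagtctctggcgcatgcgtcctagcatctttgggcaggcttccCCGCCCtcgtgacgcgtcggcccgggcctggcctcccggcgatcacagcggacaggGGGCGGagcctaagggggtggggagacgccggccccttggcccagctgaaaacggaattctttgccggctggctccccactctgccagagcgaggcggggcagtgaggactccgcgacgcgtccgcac
MTAP: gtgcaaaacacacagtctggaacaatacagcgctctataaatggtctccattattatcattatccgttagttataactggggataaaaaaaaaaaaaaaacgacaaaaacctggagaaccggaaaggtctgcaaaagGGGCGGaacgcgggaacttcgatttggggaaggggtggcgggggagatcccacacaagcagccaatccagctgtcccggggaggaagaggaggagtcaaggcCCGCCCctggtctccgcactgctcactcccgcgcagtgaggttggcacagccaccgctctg
DMRTA1: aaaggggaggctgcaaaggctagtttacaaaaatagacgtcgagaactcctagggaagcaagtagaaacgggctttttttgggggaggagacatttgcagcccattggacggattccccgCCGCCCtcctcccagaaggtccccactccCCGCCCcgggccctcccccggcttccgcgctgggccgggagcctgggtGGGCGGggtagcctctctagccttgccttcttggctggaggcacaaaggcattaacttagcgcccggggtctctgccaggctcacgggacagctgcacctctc
FOCAD: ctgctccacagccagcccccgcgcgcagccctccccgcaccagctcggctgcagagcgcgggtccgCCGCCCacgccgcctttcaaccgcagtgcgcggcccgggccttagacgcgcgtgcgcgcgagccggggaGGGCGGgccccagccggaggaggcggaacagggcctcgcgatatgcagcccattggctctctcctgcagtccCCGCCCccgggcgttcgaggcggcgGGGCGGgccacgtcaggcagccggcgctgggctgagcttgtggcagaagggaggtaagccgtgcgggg

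All 4 genes matched an entry of the promoter table. The p16INK4a promoter held 26 CpG dinucleotides and the p14ARF promoter 28, CDKN2B held 25, DMRTA1 16 and MTAP 15, against a median of 14 over 35116 promoters of the same length. FOCAD held 39. The GC box was found 3 times in DMRTA1, 2 times each in the p16INK4a, CDKN2B and MTAP promoters, 4 times in FOCAD and not in the p14ARF promoter. GGGCGG or CCGCCC occurred in 45.0% of all promoters in the table. A match is a description of the letters and says nothing of what bound there.

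The absence of peaks was not limited to the 4 genes. No peak of either list lay between 20756497 and 24912024 on chromosome 9, a stretch of 4155528 bases that takes up 81.1% of the 20 to 24 Mb window and goes on beyond it. The stretch began and ended at nearly the same base in both genotypes. In the knockout list it ran from 20756497 to 24912439 (4155943 bases) and in the control list from 20756295 to 24912024 (4155730 bases), so that the left edges were 202 bases apart and the right edges 415 bases apart. The flanking peaks are the outer limits that these lists can set on any segment missing from every copy, since sequence under a peak was recovered. Deleted sequence and sequence that was present but carried no peak cannot be told apart in peak lists.

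**Figure D1:**
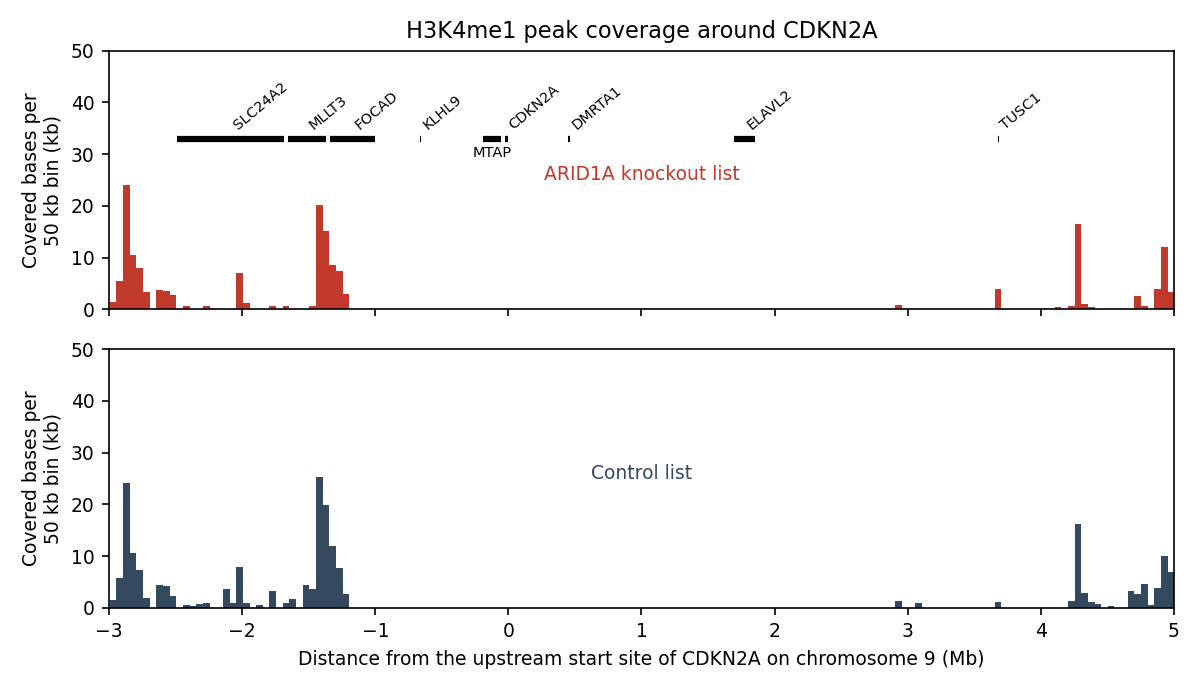
Bases covered by H3K4me1 peaks in bins of 50 kb (vertical axis, kb) against distance in Mb from the upstream start site of CDKN2A, in the ARID1A knockout list (top) and the control list (bottom), with gene records as black bars. Coverage stops inside FOCAD in both lists and is next seen as 1 small peak almost 3 Mb to the right of CDKN2A.

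The members differed in how deep inside the stretch they lay. DMRTA1 (22446824 to 22455740) was 1690328 bases from the nearest peak of either list, CDKN2B (22002903 to 22009313) 1246407 bases, CDKN2A (21967752 to 21995324) 1211256 bases and MTAP (21802636 to 21941115) 1046140 bases. In each case the nearest peak was the one inside FOCAD. On the other side the next peak was 2456285 bases from DMRTA1, 2902712 from CDKN2B, 2916701 from CDKN2A and 2970910 from MTAP. By distance to the nearest peak DMRTA1 ranked 52, CDKN2B 71, CDKN2A 73 and MTAP 87 of 19974 genes. All 4 members were at least 1 Mb from any peak, against 0.456% of all protein-coding genes (91 genes). Without regard to distance, 4 of 4 members had no peak of either list within 5000 bases of the gene record, against 15.8% of all protein-coding genes. The members are neighbours inside the same stretch, so they are not 4 independent cases, and they are themselves among the 91 genes.

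**Figure D2:**
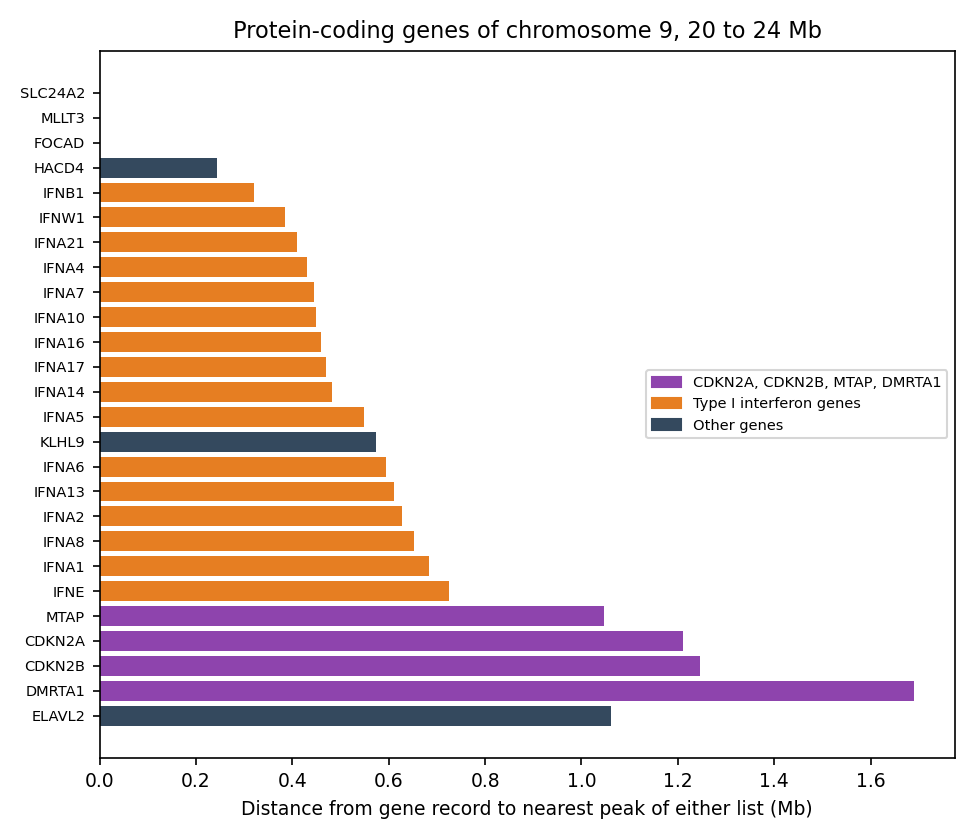
Distance in Mb (horizontal axis) from each of the 26 protein-coding gene records in the 20 to 24 Mb window to the nearest peak of either list, in chromosome order from top to bottom, with the 4 member genes in purple. SLC24A2, MLLT3 and FOCAD hold peaks and stand at 0, and the members stand between 1046140 and 1690328 bases.

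The stretch held 24 protein-coding gene records whole and part of another, and 67 records of any kind whole, among them 18 long non-coding RNAs and 21 pseudogenes. Of the coding genes, 16 of 24 were type I interferon genes: IFNB1, IFNW1, IFNE and 13 interferon alpha genes, secreted antiviral cytokines that most cells express only when induced. Their distances to the nearest peak ranged from 320608 bases at IFNB1 to 724343 bases at IFNE. The other 8 were HACD4, KLHL9, MTAP, CDKN2A, CDKN2B, DMRTA1, ELAVL2 and IZUMO3. KLHL9 encodes a substrate adaptor of a cullin ubiquitin ligase that acts in mitosis and lay 573169 bases from the nearest peak, and HACD4, a gene of the family that acts in the elongation of very long fatty acids, lay 243013 bases away. ELAVL2, which encodes a neuronal RNA-binding protein, was 1061424 bases and IZUMO3, a relative of the sperm protein IZUMO1, 366128 bases from the nearest peak, in both cases the one to the right. As background, MTAP is expressed in most normal tissues, whereas the interferon genes, ELAVL2 and IZUMO3 are silent in most. In all, 23 of the 26 protein-coding genes that touch the 20 to 24 Mb window had no peak in either list within 5000 bases, again against 15.8% of all genes. These 23 genes lie in the same stretch and are not independent cases.

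The stretch also held MIR31, whose microRNA has been studied as a suppressor of metastasis in breast cancer, and ended short of MIR491, which lies in the part of FOCAD that carried peaks. The mature sequences, from RefSeq (GRCh38.p14), are shown with the seed, bases 2 to 8, in capitals, because they name the products on either side of the edge, and no 2 of the 3 seeds are alike. hsa-miR-31-5p is on the minus strand at chr9:21512158-21512178, hsa-miR-491-5p on the plus strand at chr9:20716120-20716141 and hsa-miR-491-3p on the plus strand at chr9:20716154-20716175.
hsa-miR-31-5p: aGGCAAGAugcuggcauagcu
hsa-miR-491-5p: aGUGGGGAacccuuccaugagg
hsa-miR-491-3p: cUUAUGCAagauucccuucuac

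The bases of hsa-miR-31-5p lay 755662 bases from the nearest peak of either list, which was again the FOCAD peak. Those of hsa-miR-491-5p had a control peak 5472 bases to the right and another 24745 bases to the left. The right one overlapped a knockout peak. The left one, from 20689064 to 20691375, was in the control list alone, with a −log10 q of 1.63. The last knockout peak before hsa-miR-491-5p ended at 20686934. Of the non-coding genes near CDKN2A, the antisense transcript CDKN2B-AS1 and the MIR31 host transcript MIR31HG lie wholly inside the stretch and so had no peak.

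Set against all intervals between neighbouring peaks of the joined lists, the stretch ranked 11 by length among 94718, whose median was 10328 bases. On chromosome 9 it was rank 2, after the interval around the centromere. Within the knockout list alone it ranked 14 in the genome and 3 on chromosome 9. Within the control list alone the ranks were 13 and 2. The places of the intervals longer than it in a single list are not given here. The 10 longer intervals of the joined lists all lie at or next to centromeres, and 5 of them hold no coding gene. Together they hold 83 coding genes, of which 49 are in the interval on chromosome 11, mostly olfactory receptor genes. The interval on chromosome 11 was the only longer one with at least 24 coding genes. Among 356 peak-free intervals of 500000 bases or more, the stretch ranked 3 by number of coding genes, tied with another. The next shorter interval, of 4068074 bases on chromosome X (30888253 to 34956326), held 5 coding genes, among them the muscle gene DMD. That interval was of nearly the same length and held fewer genes. After a single joined peak it was followed by another of 2374234 bases (34958311 to 37332544), which held 3 coding genes.

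**Figure D3:**
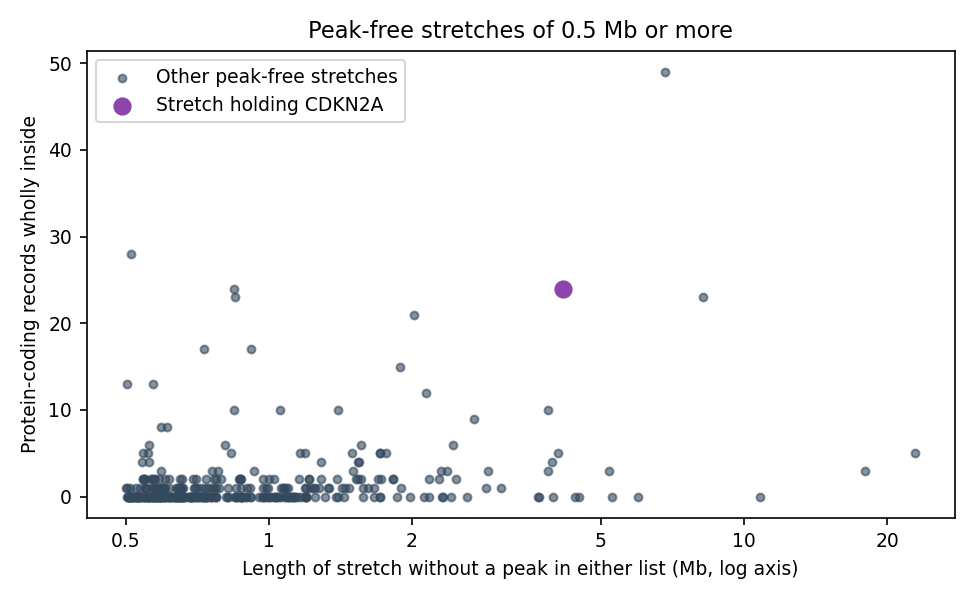
Length of each stretch of 0.5 Mb or more without a peak in either list (horizontal, Mb, log axis) against the number of protein-coding records wholly inside it, for 356 stretches. The stretch that holds CDKN2A (purple) has a length of 4.156 Mb and 24 genes, and most others have fewer than 10 genes.

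The left edge lay inside FOCAD (20655625 to 20995950), which encodes focadhesin, a protein found at focal adhesions and studied as a tumour suppressor in glioma. The last peak before it ran from 20753547 to 20756496 in the knockout list, with a fold enrichment over input of 3.61 and a −log10 q of 5.71, and from 20753619 to 20756294 in the control list, with 4.98 and 7.82. These fold and q values are the authors' own, each against the input of its genotype. They are set side by side, and a difference in them between the lists is not read as a difference in the mark. Peaks were close together up to the edge. Over the last 256496 bases before the edge 17 joined peaks had a median spacing of 6138 bases, and the widest space between 2 of them was 39120 bases, against 4155528 bases from the edge onward. Of the 340326 bases of the FOCAD record, 239454 (70.4%) lay in the stretch. Among 1082 coding genes of 200000 to 500000 bases, 635 had at least 9 joined peaks as FOCAD did, and their longest peak-free run took up a median of 20.5% of the gene. FOCAD was the only 1 of those 635 in which the run took up 70.4% or more. Both cutoffs are the values of FOCAD itself, which was chosen because the edge lies in it. The run is part of the stretch, so this comparison is a description and not a test.

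The peaks of FOCAD lay on both sides of its promoter and on to the edge. The promoter window printed above held no covered base in either list. In the knockout list the nearest peaks were 596 bases to its left and 578 to its right, and in the control list they were 819 and 1295 bases away. No such flanking peaks were seen at any of the 5 promoter windows of the 4 member genes, where the nearest peak on the left was between 1045890 and 1690280 bases away over both lists.

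**Figure D4:**
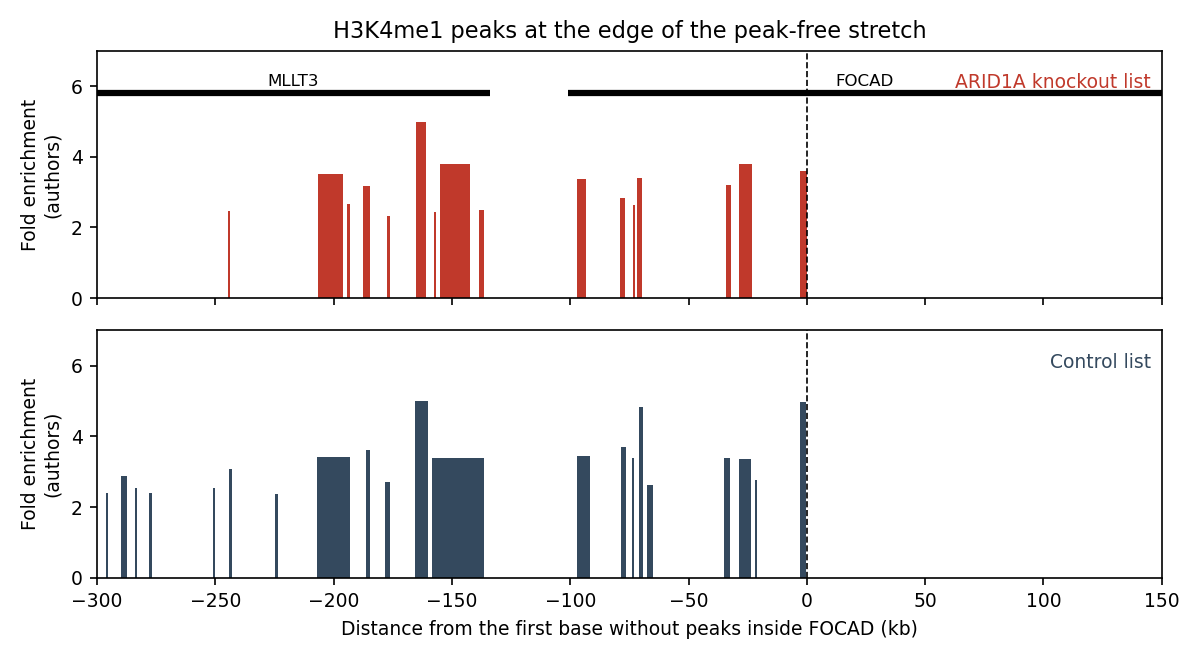
Fold enrichment over input as the authors gave it (vertical axis) of each peak, drawn at its width, against distance in kb from the first base without peaks, in the ARID1A knockout list (top) and the control list (bottom); black bars are the MLLT3 and FOCAD records. Both lists have a last peak just left of the dashed line, with a fold of 3.61 in the knockout list and 4.98 in the control list, and none to its right.

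The right edge was less sharply placed. The first peak after the stretch ran from 24912440 to 24913383 in the knockout list (fold enrichment 3.26, −log10 q 3.06) and from 24912025 to 24913391 in the control list (3.08 and 2.57). Between that point and 26 Mb there were 3 knockout peaks covering 4970 bases and 4 control peaks covering 3366 bases, and after joining the lists the spaces between neighbours were 180381, 581814 and 1751 bases. Peaks were sparse just outside the stretch as well. The first gene with peaks was TUSC1 (25676969 to 25678444), a candidate tumour suppressor gene, with 2 knockout peaks covering 4026 bases and 2 control peaks covering 1089 bases. When peaks had to reach a −log10 q of 5, the stretch became longer, 5499847 bases over both lists. The peaks from 24912025 to 26 Mb were all weaker than that. With a fold cutoff of 4 the left edge moved as well, in the knockout list alone. FOCAD then held no knockout peak, and the last knockout peak before the stretch ended at 20595648 in MLLT3. The stretch was then 5661033 bases long in the knockout list and 5500049 in the control list.

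The background level behind the fold enrichment of the flanking peaks was estimated from the deposited values as (pileup + 1) / fold − 1. In the 20 to 24 Mb window, where every peak lies left of the stretch, the median estimate was 3.82 in the knockout list and 3.20 in the control list, against 4.61 and 3.70 over all peaks of those lists. The ratio of knockout to control in the window was 0.959 times the genome-wide ratio. Right of the stretch the median estimates were 2.60 in the knockout list and 2.43 in the control list. The lowest values in the lists were 2.60 and 2.40, so these estimates stand at or near the smallest that the lists hold. They may be a floor and so need not give the local input level. Inside the stretch there was no peak from which to make an estimate.

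All differences between the genotypes in the window lay left of the stretch. There the 19 knockout peaks covered 57630 bases and the 29 control peaks covered 82692 bases, a difference of -25062 bases. All 19 knockout peaks overlapped a control peak (100%, 95% exact binomial interval 82.4 to 100), and 16 of 29 control peaks overlapped a knockout peak (55.2%, 35.7 to 73.6). Both intervals are for counting error alone, and neighbouring peaks are not independent. In the adjoining 19 to 20 Mb, 25 of 30 knockout peaks (83.3%) and 27 of 36 control peaks (75.0%) overlapped a peak of the opposite list. Peaks lying across 20 Mb count in both places. The share over all peaks of the lists is not given here, so the overlap is not called particular to the window. The 13 control peaks without a knockout counterpart were weak, with a median −log10 q of 1.50 and a highest of 2.09, and 8 of them lay in MLLT3. The 16 shared control peaks had a median of 4.04.

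Of the 26 coding genes that touch the window, 3 carried peaks, and their counts run over the entire gene and 5000 bases beyond each end, so those of SLC24A2 take in peaks left of 20 Mb. MLLT3 (20341669 to 20622499) encodes AF9, a subunit of the super elongation complex and a fusion partner of KMT2A in leukaemia, and 9 knockout peaks covered 36059 bases there, against 14 control peaks covering 54801 bases. Its widest peak was 12820 bases in the knockout list and 21989 bases in the control list. SLC24A2 (19507455 to 20307892), which encodes a potassium-dependent sodium-calcium exchanger of neurons, had 6 knockout peaks covering 10513 bases and 14 control peaks covering 19910 bases. FOCAD had 7 knockout peaks covering 19012 bases and 9 control peaks covering 22207 bases. With all peaks, the 3 genes were at least 1000 bases lower in the knockout list, the direction seen at 30.0% of all protein-coding genes, while 20.2% were at least 1000 bases higher. These genes are neighbours and share the depth of a single list, so they are not 3 independent cases.

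The calls at these genes depended on the q cutoff. With a −log10 q cutoff of 2, FOCAD had 19012 knockout and 19289 control bases and was no longer called, whereas MLLT3, with 33673 knockout and 48997 control bases, still was. When only peaks reaching a −log10 q of 5 were kept, MLLT3 had 27478 knockout and 5799 control bases, a difference of 21679 bases, and FOCAD had 10413 knockout and 4432 control bases. SLC24A2 then had 7539 knockout and 7567 control bases and was no longer called. With a fold cutoff of 4 in place of q, the direction did not turn: MLLT3 had 4353 knockout and 5799 control bases, and FOCAD had 0 knockout and 4432 control bases. At the place of the widest control peak of MLLT3 (20597852 to 20619840) there were 3 knockout peaks, with −log10 q values of 1.51, 5.52 and 2.85, and at a cutoff of 5 the knockout peak of 5.52 stayed, while the control peak, with 3.96, dropped out. Over the whole lists, the median −log10 q was 3.77 in the knockout list and 3.18 in the control list, so the same cutoff need not be equally strict in both. The strongest knockout peak touching the window, from 19997673 to 20001248 inside SLC24A2, had a fold enrichment of 7.63 and a −log10 q of 18.6, a value reached by 0.856% of the peaks in its list. The control peak there, from 19997539 to 20000969, had 4.47 and 8.94, a value reached by 9.35% of the peaks in its list.

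**Figure D5:**
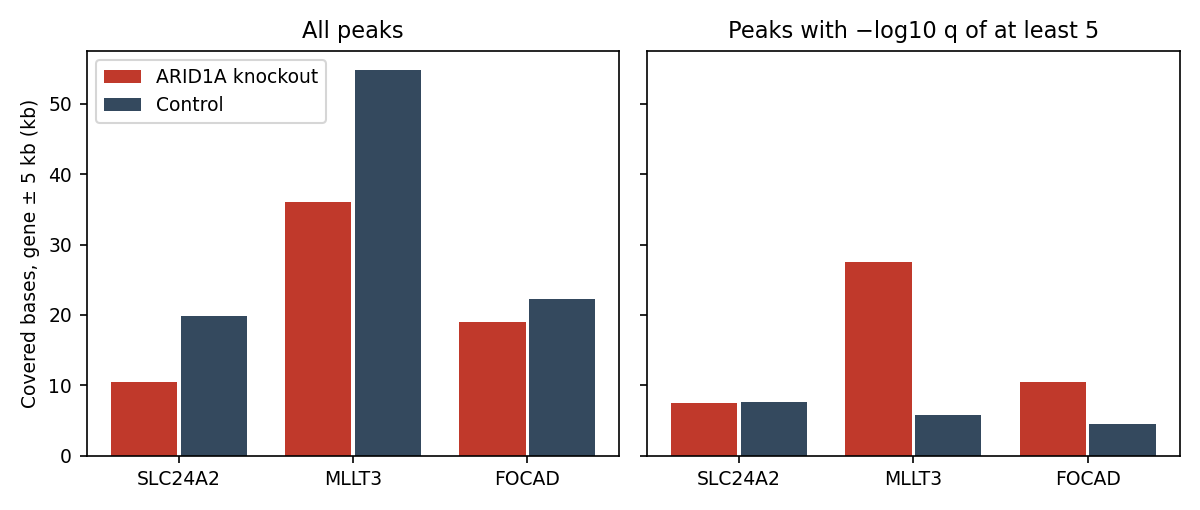
Bases covered by peaks (vertical axis, kb) at SLC24A2, MLLT3 and FOCAD with 5 kb on either side, in the ARID1A knockout list (red, left bar) and the control list (dark, right bar), for all peaks (left panel) and for those reaching a −log10 q of 5 (right panel). MLLT3 is lower in the knockout list with all peaks, 36059 against 54801 bases, and higher with strong peaks only, 27478 against 5799 bases.

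Genes that work with the members elsewhere in the genome did carry peaks. In the 4 lists on the kinase inhibitors, the retinoblastoma pathway, methionine salvage and the PRMT5 complex, 32 of 32 genes had a peak in both genotypes, as did 77.6% of all protein-coding genes and 0 of 4 members. These 4 lists were put together after their values were seen, and the DMRT list, with 1 of 6 genes, is not among them. The count of 32 of 32 is therefore a description of the chosen lists and not a test. Among the other INK4 and CIP/KIP inhibitors of cyclin-dependent kinases, 2 of 5 had at least 1000 more covered bases in the knockout list and 2 had at least 1000 fewer, with a median difference of -758 bases. CDKN1B, which encodes p27, had 4958 knockout and 2232 control bases. CDKN1C, which encodes p57, had 904 knockout and 3326 control bases, and CDKN1A, which encodes p21, had 5197 knockout and 6496 control bases. CDKN2C and CDKN2D, the INK4 genes other than CDKN2A and CDKN2B, had 9851 and 6879 knockout bases, against 8651 and 7637 control bases. The median difference over all 19974 genes was 0 bases.

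Of the p16INK4a targets and retinoblastoma pathway genes 4 of 11 were higher and 2 lower in the knockout list, with a median difference of 60 bases. CDK6, a kinase that p16INK4a inhibits, had 118371 knockout and 108204 control bases, and CDK4, the other, had 8296 knockout and 6015 control bases. CCND2, which encodes the cyclin D2 partner of these kinases, had 2396 knockout and 7304 control bases. RB1, the retinoblastoma gene, had 9910 knockout and 8001 control bases. Of the partners of p14ARF, NPM1, whose product binds p14ARF in the nucleolus, had 17381 knockout and 20438 control bases. MDM2 had 10958 knockout and 12146 control bases.

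Of the methionine salvage and polyamine genes around MTAP 1 of 11 was higher and 4 lower, with a median difference of -312 bases. SMS, the spermine synthase gene, had 20697 knockout and 32488 control bases. AMD1, whose product starts polyamine synthesis from S-adenosylmethionine, had 12859 knockout and 16791 control bases, and AHCY, which encodes adenosylhomocysteinase, had 9040 knockout and 12524 control bases. In the PRMT5 complex 1 of 5 genes was higher and 2 were lower, with a median difference of -244 bases. PRMT5 itself had 5301 knockout and 11054 control bases, its partner gene WDR77 had 4604 knockout and 5731 control bases, and CLNS1A, which encodes a substrate adaptor, had 8701 knockout and 6912 control bases. Among the DMRT relatives of DMRTA1, genes of sex determination and development, 3 of 6 had no peak in either list. DMRT1 had 2795 knockout and 7493 control bases, DMRT3 had 0 knockout and 3860 control bases, and DMRT2 had 1200 knockout and 0 control bases. The counts of these lists stand beside 20.2% of all genes higher and 30.0% lower in the knockout list, and nothing is called particular to a list.

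The lists were also read at genes that mark cell types. All 7 genes of a mesenchymal-like breast cancer line (VIM, CD44, AXL, CAV1, ZEB1, MET and EGFR) carried peaks in both genotypes. So did 4 of 5 luminal or HER2 breast genes, 2 of 3 fibroblast genes and the blood cell genes PTPRC, SPI1 and CD3E, while DCN had no peak in either list and PGR had none in the knockout list. H3K4me1 peaks at single genes therefore did not separate the labelled cell type from others.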

How the data were processed

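H3K4me1 was profiled in 8 samples of MDA-MB-231 cells, in 4 groups of 2 (ARID1A knockout and control, each with immunoprecipitate and input). Chromatin was fragmented with micrococcal nuclease, per the labels' protocols. The protocol text names an H3K4me3 antibody, whereas the titles and the antibody label say H3K4me1. The tools named are Bowtie2 2.3.5.1 and MACS2 2.2.6, and the build is hg38, per the submitters' processing notes. Their settings, and how replicates entered a call, are not given in these sources. For each genotype the authors deposited 1 peak list. Per the file headers, each peak has a position, a pileup (signal), a fold enrichment over input (ratio), and the −log10 of a q-value, all set by the authors' caller. Peak numbers run without a break, also across the stretch without peaks. The lists give no library totals, so sequencing depth is unknown.

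Peaks outside the 22 autosomes and X were dropped (3 knockout, 6 control). Covered bases were summed over the gene record of the RefSeq table (GRCh38.p14, the coordinates of hg38) with 5000 bases on either side, and a difference of at least 1000 bases was called. Peaks that share 1 base counted as shared. Shortest peaks were 361 bases in the knockout list and 312 in the control list. One alternative joined peaks with at most 1444 bases between them and dropped peaks under 361 bases in both lists. The background estimate assumes a pseudocount of 1. Interval routines were tested on simulated data. Python 3.11.15, numpy 2.4.6, pandas 2.3.3, scipy 1.17.1 and matplotlib 3.10.9 were used. Genes named are the 4 members, the coding genes of the window and of the edges, and up to 3 genes of each pathway list with the largest difference; CDKN2C, CDKN2D, RB1 and the miRNAs were added after their values were seen. Members and lists were chosen with earlier results of these data known. Some listed genes are not reported here, and counts of the p14ARF and blood cell lists are left out with them.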

Additional observations from a re-analysis of the deposited data

How the results depend on the processing

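The number of member genes with a peak in either list was 0 with all peaks, and the alternatives could not change it: cutoffs (−log10 q of 2 or 5, fold of 4) only remove peaks, and flanks of 0 to 1000000 bases are shorter than the 1046140 bases to the nearest peak. Flanks of 500000 and 1000000 bases were added once the data had been seen. The stretch without peaks was between 4155528 and 5661033 bases long over the lists and cutoffs. In the 20 to 24 Mb window, with a −log10 q cutoff of 2 there were 15 knockout peaks (93.3% shared) and 15 control peaks (80.0% shared). The lists thus held equal numbers of peaks there, and the difference in covered bases, knockout minus control, was -14581. With a cutoff of 5 there were 7 knockout peaks (57.1% shared) and 4 control peaks (100% shared), control coverage was 11200 bases, and the difference turned to 27939 bases, as it did at MLLT3 (21679) and FOCAD (5981). With a fold of at least 4 there were 2 knockout peaks covering 5601 bases and 4 control peaks covering 11200, a difference of -5599. The cause was not tested. Leaving out a replicate was not run, because the lists give no values per replicate. No paired analysis was possible because the deposited lists carry no values per replicate.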

Other observations

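The short arm of chromosome 9 held other long stretches without a peak in either list. One of 3.077 Mb (7798773 to 10875520) held PTPRD, which encodes a receptor-type tyrosine phosphatase. A single joined peak on either side parted it from stretches of 0.581 Mb (7217238 to 7797893) and 1.662 Mb (10876851 to 12539044). The length and rank of a stretch can thus depend on a single peak. Another of 1.701 Mb (16443475 to 18144673) held CNTLN, a centrosome gene, and SH3GL2, an endocytosis gene active in brain. These stretches are given as values, and whether their DNA was present was not measured here. These genes, and DMD in the account of the stretch, were named after their values were seen.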
